A study of Homo sapiens with 39 samples.

Results

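The 3′ junction clusters described here are the PAR-CLIP clusters of U2AF1 that ran from an intron into the exon downstream of it. They were taken as the clusters whose deposited annotation read intron-coding, intron-5'utr, intron-3'utr or lincRNA_intron-lincRNA_exon, with no use of their reads, conversions or sequence. There were 18266 of them among 148336 clusters in 3 lists. The list of wild-type protein in cytoplasm (WT cytoplasm) held 746 of 26613, the list of mutant protein in cytoplasm (S34F cytoplasm) held 986 of 28828, and the list of wild-type protein on chromatin (WT chromatin) held 16534 of 92895.

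PAR-CLIP crosslinks a protein to RNA that has taken up a photoreactive analogue of uridine, and crosslinked positions are read as T-to-C conversions. The cells were Flp-In-293, a line derived from HEK293 human embryonic kidney cells, which expressed FLAG-HA tagged U2AF1 on top of their own protein, either as wild type (WT) or with the S34F substitution found in cancers. S34F protein was profiled in the cytoplasmic fraction, and WT protein in the cytoplasmic and the chromatin fraction. Each deposited list pools 2 replicates (A and B), so no spread between replicates can be given, and the 95% exact Clopper-Pearson intervals below cover counting error only, for reads that carry no molecular identifiers.

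U2AF1 is the small subunit of the U2AF heterodimer. At the 3′ splice site the large subunit, U2AF2, binds the pyrimidine tract near the end of the intron, and U2AF1 contacts the AG dinucleotide that closes it. Together they recruit the U2 snRNP. The serine changed by S34F lies in a zinc finger of U2AF1, and the mutation is known for altering the choice of exons in leukaemia and lung cancer cells according to the base that precedes the AG. The study asked about U2AF1 outside splicing, on RNA in the cytoplasm, where spliced messenger RNA no longer holds introns.

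The sequences below show what these clusters look like. They are the intron-coding clusters of at most 30 bases with an acceptor-like AG, defined below, that had the most reads in each list, on the strand of the transcript, 5′ to 3′, and the 3 capitals mark the AG taken as the intron's end with the base before it, counted as position -3. In each of them the letters left of the capitals belong to the intron and those right of them to the exon, if this AG is the one used. Coordinates are copied from the deposited clusters. The build they refer to is not given in the sources used here.
HIF1AN, WT cytoplasm, chr10:102307836-102307864, plus strand: atgtttctttaCAGgtggggcccttgttg
SCFD1, WT cytoplasm, chr14:31108965-31108992, plus strand: cttttcttttgtttcTAGgtttttgacc
DDRGK1, WT cytoplasm, chr20:3175488-3175516, minus strand: agtcccagagcttcctgacaGAGttcatc
STOX2, S34F cytoplasm, chr4:184930295-184930315, plus strand: tttttttttttttCAGgtgtt
VDAC1, S34F cytoplasm, chr5:133308549-133308568, minus strand: tttttctccctgCAGgtatt
SRRM1, S34F cytoplasm, chr1:24980774-24980802, plus strand: aaggtagggtttctttttttCAGgttctc
USP11, WT chromatin, chrX:47102012-47102040, plus strand: atcccattccTAGatgatggtggctgatg
FAN1, WT chromatin, chr15:31212733-31212762, plus strand: atgtcttcatttTAGatgccacgaagattt
KNTC1, WT chromatin, chr12:123034300-123034324, plus strand: ctatttttctTAGatgaaaaacctc
All 9 are annotated as intron running into coding exon. The 3 of S34F cytoplasm have cytosine before the AG and the 3 of chromatin have thymine, while those of WT cytoplasm have cytosine, thymine and guanine. The guanine, in DDRGK1, also closes a CAG that the search passed over, so this base depends on which AG is used. The 9 clusters held 46, 39 and 39 reads in WT cytoplasm, 100, 46 and 34 in S34F cytoplasm, and 689, 597 and 581 on chromatin. Whether this difference in the base before the AG runs through the lists is taken up below.

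On chromatin, 3′ junctions made up 17.8% of all clusters (17.6 to 18.0) and 31.4% of all cluster reads. In WT cytoplasm they were 2.80% of clusters (2.61 to 3.01) and 2.23% of reads, and in S34F cytoplasm 3.42% of clusters (3.21 to 3.64) and 2.43% of reads. The share on chromatin was thus the highest of the 3, and the intervals of the 2 cytoplasmic lists did not overlap. Other classes differed between the cytoplasmic lists too: clusters within introns were 28.9% of the WT and 34.1% of the S34F list, and clusters within coding exons were 32.5% and 26.5%.

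The clusters that cross the other end of the intron, from coding exon into intron, stayed at 1.21%, 1.20% and 1.47% of WT cytoplasm, S34F cytoplasm and chromatin. For each such 5′ junction cluster there were 1.95 intron-coding clusters in WT cytoplasm, 2.42 in S34F cytoplasm and 11 on chromatin. The 3′ end was the more frequent one in all 3 lists, and most so on chromatin.

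**Figure D1:**
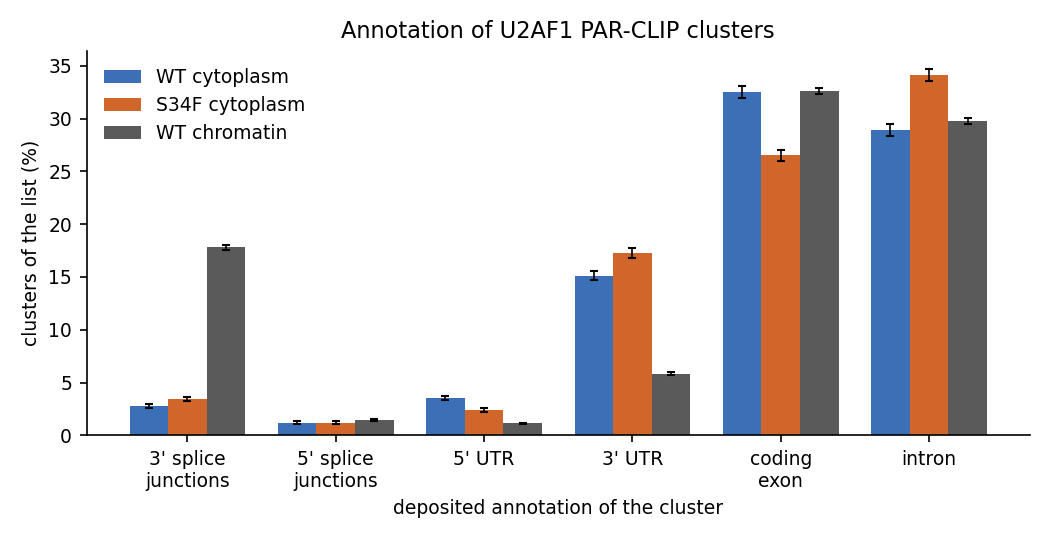
Share of the clusters of each list (percent, vertical axis) by deposited annotation (horizontal axis), with bars for WT cytoplasm, S34F cytoplasm and WT chromatin and error bars for the exact 95% interval. The 3′ splice junction bar of chromatin stands at 17.8% against 2.80% and 3.42% in cytoplasm, while the 5′ splice junction bars are all between 1.20% and 1.47%.

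On chromatin the share of 3′ junctions was higher in deeper clusters, over a wider range than in cytoplasm. Among chromatin clusters of 4 to 6 reads 6.89% were 3′ junctions, among those of 31 to 60 reads 18.1%, and among those of 61 reads and more 37.2% (36.5 to 37.9). In WT cytoplasm the share lay between 2.17% and 3.20% over the same 6 classes of reads, with no steady order. In S34F cytoplasm it was 2.68% (2.33 to 3.06) at 4 to 6 reads, higher at 4.00% (3.55 to 4.49) at 10 to 15 reads, and 4.05% at 61 reads and more. In each of these classes the chromatin share was above both cytoplasmic ones.

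Most 3′ junction clusters were at coding exons. Intron-coding clusters made up 84.6% of them in WT cytoplasm (631), 84.9% in S34F cytoplasm (837) and 90.8% on chromatin (15018). Junctions into 5′ untranslated exons numbered 47, 66 and 816, junctions into 3′ untranslated exons 60, 67 and 584, and junctions of long noncoding RNAs 8, 16 and 116.

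The cytoplasmic clusters were shallow. They held a median of 11 reads in WT cytoplasm (quartiles 7 and 17) and 10 in S34F cytoplasm (7 and 16), against 49 on chromatin (26 and 97). Median lengths were 28, 28 and 33 bases. Many reads were copies of one another: the median cluster held 4, 4 and 7 distinct read sequences, and the libraries gave 2.77, 2.24 and 7.21 reads per distinct sequence over these clusters. A single sequence made up the whole cluster in 43 WT cytoplasm, 23 S34F cytoplasm and 324 chromatin clusters.

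The median share of reads with a T-to-C conversion was 82.5% in WT cytoplasm, 83.8% in S34F cytoplasm and 95.3% on chromatin. Every read was converted in 35.5%, 38.0% and 42.5% of the clusters. Within introns the share of fully converted clusters was higher, at 66.3%, 57.7% and 72.9%, and within coding exons it was 22.1% and 23.1% in the cytoplasmic lists. In the cytoplasm the 3′ junctions thus lay between coding exon and intron in this measure, while on chromatin they were below both, since 52.4% of coding clusters there were fully converted. The classes were not matched for depth. Median reads of 3′ junction, coding and intron clusters were 11, 13 and 7 in WT cytoplasm and 10, 11 and 8 in S34F cytoplasm. On chromatin they were 49, 29 and 23.

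Conversion fell with depth in cytoplasm. Clusters of 4 to 6 reads had a median of 100% in all 3 lists. Every listed cluster has at least 2 conversion positions, and what else the caller asked of shallow clusters is not given in the sources used here. At 16 to 30 reads the median was 57.9% in WT cytoplasm, 63.1% in S34F cytoplasm and 100% on chromatin. At 61 reads and more it was 27.7% in 17 WT clusters, 39.7% in 34 S34F clusters and 86.6% in 6833 chromatin clusters. In the median deep cluster most reads were unconverted in cytoplasm and converted on chromatin.

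An AG that could close an intron was searched for in the deposited sequence, as an AG with at least 7 C or T among the 10 bases at -13 to -4, where -1 is the G. Such an acceptor-like AG was found in 416 of 746 WT cytoplasm clusters (55.8%, 52.1 to 59.4), in 556 of 986 S34F cytoplasm clusters (56.4%, 53.2 to 59.5) and in 9357 of 16534 chromatin clusters (56.6%, 55.8 to 57.4). The same search found one in 31.6%, 32.1% and 38.6% of 5′ junction clusters, in 18.9%, 17.8% and 24.2% of coding clusters, and in 31.4%, 37.9% and 32.7% of intron clusters. The 3′ junctions stood above these classes in all 3 lists. They were taken for crossing the annotated end of an intron, where an AG is usual, so a higher share follows in part from that rule. Longer clusters have more room for a match, and among clusters of 25 to 35 bases the shares were 52.0%, 55.4% and 51.7% for 3′ junctions and 29.8%, 22% and 21.1% for 5′ junctions. Intron clusters of that length were at 32.3%, 44.8% and 33.9%, so the gap to introns was narrowest in S34F cytoplasm.

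The remaining clusters mostly held an AG too: one was present in all 746 WT cytoplasm, all 986 S34F cytoplasm and 16528 of 16534 chromatin clusters. The window before an AG lay inside the cluster in 682, 896 and 14928 of them, and in the others the tract could not be read. Acceptor-like clusters held 8.39, 8.42 and 8.38 pyrimidines of 10, and 5.85 ± 1.76, 6.12 ± 1.60 and 5.73 ± 1.66 of the 10 were thymine (mean ± SD over clusters).

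The base before the AG differed between the WT and S34F cytoplasm lists. Cytosine stood there in 240 of 416 WT cytoplasm clusters (57.7%, 52.8 to 62.5) and in 382 of 556 S34F cytoplasm clusters (68.7%, 64.7 to 72.5). Thymine stood there in 113 WT clusters (27.2%, 22.9 to 31.7) and 92 S34F clusters (16.5%, 13.6 to 19.9). S34F clusters had more cytosine and less thymine, and neither pair of intervals overlapped. Among clusters with exactly 1 candidate AG both pairs did overlap, as given further below. Adenine was read in 7.69% and 9.17% and guanine in 7.45% and 5.58%, where the intervals did overlap.

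With WT protein on chromatin the base was cytosine in 49.7% (48.7 to 50.7), thymine in 29.2% (28.3 to 30.2), adenine in 13.6% and guanine in 7.44% of 9357 clusters. The thymine share of WT protein was therefore alike in the 2 fractions within the interval of the cytoplasmic list, while S34F cytoplasm stood apart from both. Cytosine was more frequent and adenine less frequent in WT cytoplasm than on chromatin. S34F protein on chromatin was not analysed here.

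**Figure D2:**
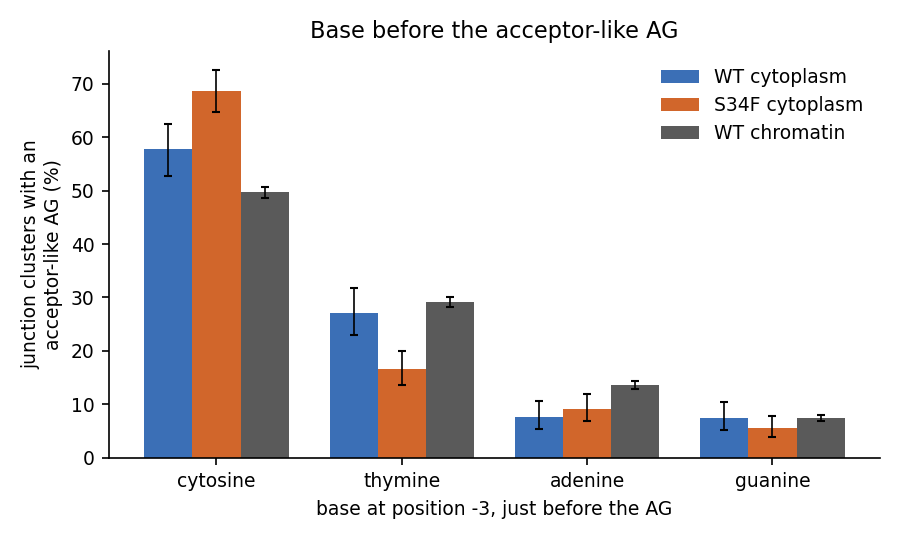
Share of 3′ junction clusters with an acceptor-like AG (percent, vertical axis) that have each base at position -3 (horizontal axis), with bars for the 3 lists and error bars for the exact 95% interval. The S34F bar is above the WT cytoplasm bar for cytosine (68.7% against 57.7%) and below it for thymine (16.5% against 27.2%).

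The size of the gap varied between groups of clusters. Among cytoplasmic clusters that overlapped a chromatin cluster, thymine was read in 25.6% of 242 WT clusters and 20.2% of 336 S34F clusters, with overlapping intervals. Among those that did not, it was read in 29.3% of 174 WT clusters (22.7 to 36.7) and 10.9% of 220 S34F clusters (7.12 to 15.8). The gap was thus wider among acceptors without a chromatin cluster. Whether it differs between these groups was not tested.

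It also varied with depth. Among clusters of 4 to 9 reads thymine was at 20.9% in WT and 19.4% in S34F cytoplasm. Among those of 10 to 15 reads it was at 28.8% and 15%, among those of 16 to 30 reads at 36.4% (26.4 to 47.3) and 14.4% (8.30 to 22.7), and among those of 31 reads and more at 30% and 13.3%. The shallowest clusters, which were 177 of the 416 in WT and 232 of the 556 in S34F, thus had nearly the same thymine share in both lists, and the intervals of the 2 lists were apart only for 16 to 30 reads.

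**Figure D3:**
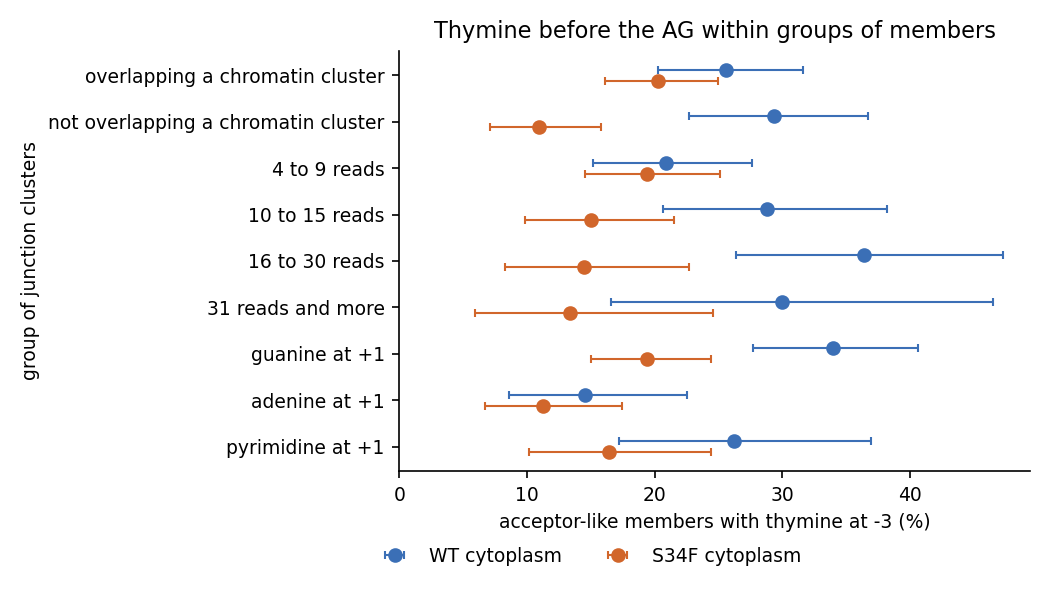
Share of acceptor-like clusters with thymine at -3 (percent, horizontal axis) in groups of cytoplasmic 3′ junction clusters (vertical axis), for WT (blue) and S34F (orange) protein, with exact 95% intervals as bars. S34F points lie left of WT points in all 9 groups, and the intervals are apart for clusters outside chromatin clusters, for 16 to 30 reads and for guanine at +1.

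The size of the difference in the base before the AG depended on how clusters and AGs were chosen. S34F minus WT cytoplasm, thymine differed by -10.6 percentage points as reported and by -6.96 to -17.3 over 8 alternatives. Among clusters with exactly 1 candidate AG, where no choice among AGs was made, thymine was at 25.9% of 189 WT clusters (19.8 to 32.8) and 19.0% of 232 S34F clusters (14.1 to 24.6), and cytosine at 67.2% (60 to 73.8) and 69.8% (63.5 to 75.7). The separation of WT and S34F was lost there for both bases, and cytosine differed by 2.63 points, against 11 over all acceptor-like clusters.

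A difference in the same direction was read in clusters that lie within introns, which the rule for 3′ junctions did not take. With the same search, thymine stood before the AG in 24.3% of 2416 WT cytoplasm and 14.3% of 3732 S34F cytoplasm intron clusters, and cytosine in 44.2% and 57.8%. In coding clusters, where such an AG ends no intron of the annotation, thymine was at 7.22% and 7.40% and cytosine at 36.7% (34.3 to 39.0) and 39.1% (36.5 to 41.7). The difference between WT and S34F was thus present in intron clusters and not detectable in coding clusters at these counts.

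At the first exon base, +1, the chromatin list stood apart from both cytoplasmic lists. Guanine stood there in 53.3% of WT cytoplasm clusters (48.3 to 58.1), 52.0% of S34F cytoplasm clusters (47.7 to 56.2) and 37.8% of chromatin clusters (36.8 to 38.8). Adenine stood there in 26.5%, 27.2% and 38.4%. Both cytoplasmic lists had more guanine and less adenine than chromatin, and they did not differ from each other beyond their intervals. The same search in intron clusters read guanine at +1 in 50.3% of WT cytoplasm, 49.1% of S34F cytoplasm and 33.6% of chromatin clusters. In coding clusters guanine was at 29.1%, 27.8% and 24.6%, a smaller gap, and adenine at 31.01%, 33.11% and 41.89%. The difference at +1 was thus not particular to 3′ junctions, and its cause was not tested. The share of thymine at -3 also varied with the base at +1: with guanine at +1, thymine was at -3 in 33.9% of WT cytoplasm, 19.4% of S34F cytoplasm and 36.2% of chromatin clusters, and with adenine at +1 in 14.5%, 11.3% and 25.1%.

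The mode of a cluster, the position with the highest signal as the lists give it, lay just inside the exon on chromatin. It was at +1 to +5 in 32.6% of 9357 chromatin clusters (31.6 to 33.5) and at +1 or beyond in 67.9%. The single most frequent position was +2, with 9.17%, followed by +3 and +1. In WT cytoplasm 20.9% of modes were at +1 to +5 and 46.2% in the exon, and in S34F cytoplasm 19.6% and 48.6%.

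Modes before -13, upstream of the tract that the search used, were more frequent in cytoplasm. They made up 28.4% of WT cytoplasm and 28.4% of S34F cytoplasm clusters against 13.7% of chromatin clusters (13.0 to 14.4). In WT cytoplasm the most frequent single position was +3 (5.77%) and in S34F cytoplasm +4 (5.04%), with 24 and 28 clusters. Modes of cytoplasmic clusters were thus spread more evenly over the junction, and their intervals for WT and S34F overlapped in each zone. Chromatin clusters reached a median of 17 bases past the AG, against 10 in WT and 11 in S34F cytoplasm. They thus held more exon in which a mode could lie. Up to the AG the medians were alike, at 17, 18 and 17 bases. The part of cluster reach in the difference between modes was not tested.

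**Figure D4:**
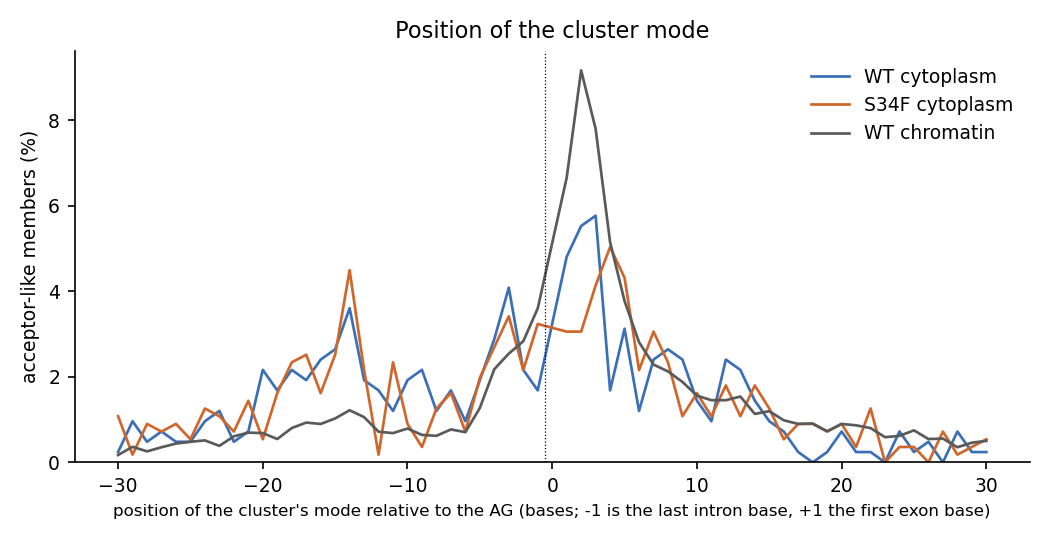
Share of acceptor-like 3′ junction clusters (percent, vertical axis) whose mode lies at each position relative to the AG (horizontal axis, in bases; -1 is the last intron base and +1 the first exon base), for the 3 lists. The chromatin line peaks at +2 with 9.17%, and the cytoplasmic lines are lower and broader, at most 5.77% in WT and 5.04% in S34F.

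The 2 cytoplasmic lists held mostly different junctions. Only 75 WT cytoplasm clusters shared at least 1 base with an S34F cytoplasm 3′ junction cluster, which is 10.1% of the WT and 7.61% of the S34F clusters. Counting clusters of any annotation in the other list, 14.3% of the WT and 11.6% of the S34F clusters had a partner. For coding clusters this share was 11.6% of the WT and 12.8% of the S34F list, and for intron clusters 5.98% and 4.66%. Sharing between the cytoplasmic lists was low in all of these classes.

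The overlap with the chromatin list, which is many times longer, was larger. Of the WT cytoplasm clusters 365 (48.9%) overlapped a chromatin 3′ junction cluster, and of the S34F cytoplasm clusters 501 (50.8%). These were 364 (2.20%) and 501 (3.03%) of the chromatin clusters. With chromatin clusters of any annotation the shares were 56.6% and 58.5%, against 30.5% and 37.6% for coding and 9.82% and 13.1% for intron clusters. Cytoplasmic junctions were thus listed on chromatin more often than cytoplasmic clusters inside exons or introns were.

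A chromatin junction was more often found in cytoplasm the more reads it had. Of chromatin clusters with 4 to 30 reads 2.03% overlapped a WT cytoplasm and 2.46% an S34F cytoplasm cluster. Of the 3153 with the most reads it was 12.7% (11.6 to 13.9) and 15.5% (14.3 to 16.9). Split by the base before the AG, chromatin acceptors with cytosine were found in WT cytoplasm in 6.75% and in S34F cytoplasm in 8.30%, those with thymine in 6.00% and 6.76%, those with adenine in 5.88% and 8.15%, and those with guanine in 8.91% and 7.33%. Both lists are compared with the same chromatin clusters here. The intervals of WT and S34F were just apart for cytosine (6.05 to 7.51 and 7.52 to 9.13) and overlapped for thymine (5.14 to 6.95 and 5.85 to 7.77), adenine and guanine. Over all chromatin 3′ junction clusters the shares were 5.38% in WT (5.04 to 5.73) and 6.53% in S34F cytoplasm (6.15 to 6.91), also apart. These include the clusters with cytosine, so whether the higher share in S34F is particular to cytosine cannot be told from them. S34F was also higher for thymine and adenine and lower for guanine, and cytosine had the most clusters, 4650.

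Over the 75 shared clusters the ratio of S34F to WT reads, each in reads per 1000000 cluster reads of its list (RPM), had a median of -0.55 on the log2 scale (95% interval of the median -1.0 to -0.32), with 22 higher in S34F. Intervals of medians here cover the spread over clusters, not between replicates, and the scaling of each list shifts all ratios together. By the base before the AG the median was -0.45 for cytosine (33 clusters, interval -0.70 to 0.04) and -1.07 for thymine (12 clusters, interval -1.40 to 0.65). It was -1.10 for adenine and -1.36 for guanine, with 6 clusters each. The intervals of these medians overlapped, so at clusters found in both lists no difference by base was detectable. A cluster had to pass the caller in both lists to enter here.

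**Figure D5:**
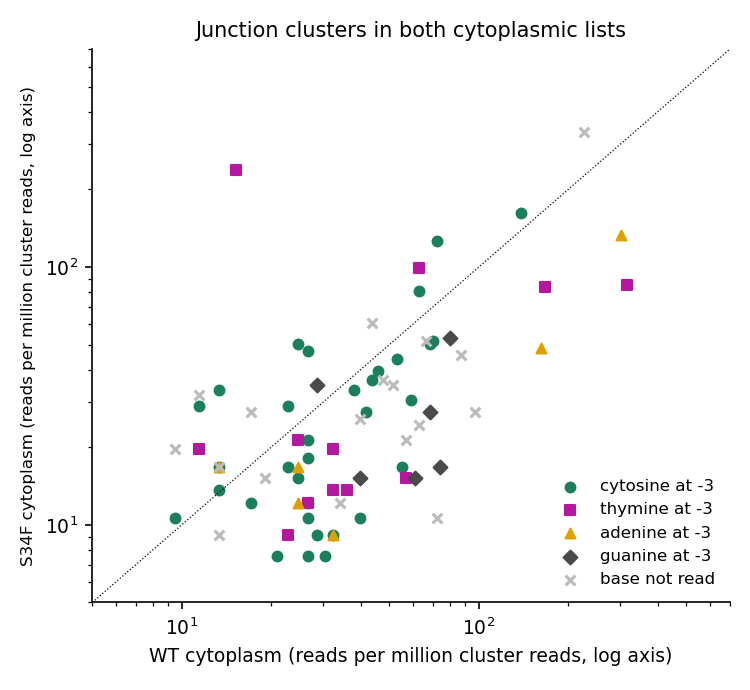
Reads per 1000000 cluster reads in WT cytoplasm (horizontal, log axis) and S34F cytoplasm (vertical, log axis) for the 75 overlapping 3′ junction clusters, marked by the base at -3, with a dotted line at equality. Most points lie below the line, 22 lie above it, and the SRSF5 cluster stands highest above it at 15.2 and 239.

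Among shared clusters with at least 20 reads in both lists together, the ratio was highest at SRSF5, which encodes a serine and arginine rich splicing factor, with 8 WT and 157 S34F reads (15.2 and 239 RPM, log2 ratio 3.97). It was followed by GCN1L1, an activator of the kinase GCN2 (6 and 21 reads), FKBP1A, a peptidyl-prolyl isomerase (6 and 19), and NAT10, an RNA cytidine acetyltransferase (7 and 22), with log2 ratios of 1.48, 1.34 and 1.33. The SRSF5 difference is thus far from the next one, and the other 3 rest on 6 or 7 WT reads each. The ratio was lowest at EWSR1, an RNA-binding protein gene, with 38 WT and 7 S34F reads (log2 ratio -2.76), then at DDRGK1, a factor of protein UFMylation (39 and 11, -2.15), CCNB1, cyclin B1 (16 and 5, -2.0), and HELLS, a chromatin remodeller (32 and 10, -2.0).

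The short clusters of these sets are printed to set the highest ratios beside the lowest. Capitals again mark the AG and the base before it.
FKBP1A, higher in S34F, chr20:1352879-1352898, minus strand: tgttcttttcaCAGatgagt
NAT10, higher in S34F, chr11:34130271-34130293, plus strand: gacttttttgtttggCAGgtggt
FANCD2, higher in S34F, chr3:10107063-10107092, plus strand: atttctccttctCAGattggtgtctccgct
CCNB1, lower in S34F, chr5:68473334-68473356, plus strand: atctttttgtcttcCAGactgtc
SNRNP48, lower in S34F, chr6:7594314-7594339, plus strand: aagattcttttttttCAGgatgaaat
All 5 have cytosine before the AG, and adenine and guanine at +1 occur in both sets, so neither position separates these short clusters. Of the named clusters not printed, SRSF5, with the highest ratio, had thymine at -3, read from its S34F cluster. HELLS, in the lowest set, had guanine, and at GCN1L1 and EWSR1 the base was not read. DDRGK1, shown further above, has guanine at -3.

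A total of 50 WT cytoplasm clusters (6.70%) overlapped 3′ junction clusters of both other lists. RBM39, a splicing factor related to U2AF2, led them, with 119 WT cytoplasm, 220 S34F cytoplasm and 1081 chromatin reads at one junction (226, 334 and 229 RPM). A second RBM39 junction, into a 5′ untranslated exon, held 88, 55 and 665 reads (167, 83.6 and 141 RPM). Among those that followed were OGT, the O-GlcNAc transferase gene, with 35, 34 and 376 reads, and PRKDC, the catalytic subunit of DNA-dependent protein kinase, with 36, 33 and 565. OGT and PRKDC stood at 50.1 to 68.4 RPM in the cytoplasmic lists and 79.6 to 119.6 on chromatin. These junctions were chosen for a high RPM in all 3 lists, which favours similar values.

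The deepest clusters of WT cytoplasm were at HNRNPA2B1, an hnRNP, with 287 and 174 reads, at RPL32, a ribosomal protein gene, with 166, and at EIF4A2, an RNA helicase of translation initiation, with 159. A noncoding gene on chromosome X also among the first 5 is not described. In S34F cytoplasm they were at PNN, a nuclear speckle protein, with 235 reads, CTDNEP1, a nuclear envelope phosphatase, with 223, RBM39 with 220, HNRNPA2B1 with 218, and NAP1L1, a histone chaperone, with 201.

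The share of converted reads was 26.9% and 32.2% at the HNRNPA2B1 clusters, 25.9% at RPL32 and 28.9% at EIF4A2 in WT cytoplasm. In S34F cytoplasm it was 22.1% at PNN, 19.3% at CTDNEP1, 34% at RBM39, 53.7% at HNRNPA2B1 and 5.97% at NAP1L1. The 5 deepest chromatin clusters were converted in 92.6% to 99.2% of reads. They lay at GAK, a kinase of clathrin uncoating, with 5256 reads, DDX46, a helicase of early spliceosome assembly, with 3634, NOP58, a box C/D snoRNP protein, with 3391, HSPA9, the mitochondrial HSP70, with 3118, and RPL5 with 2590. Reads per cluster depend on the amount of RNA of a gene and on cluster length, so these numbers do not rank genes by binding.

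Junction clusters fell in 659 genes in WT cytoplasm, 829 in S34F cytoplasm and 5612 on chromatin, which is 8.71%, 12% and 59.2% of the genes with any cluster in the list. In cytoplasm 88.9% and 84.8% of these genes had a single one, and on chromatin 40.9%. Of the WT cytoplasm genes 203 (30.8%) also had a junction cluster in S34F cytoplasm, where they were 24.5% of the genes, and 87.1% and 89.7% of the cytoplasmic genes had one on chromatin.

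Some genes carried many junction clusters on chromatin. UBR4, a ubiquitin ligase, had 41, PRKDC 36, KNTC1, a kinetochore protein gene, 33, MDN1, an ATPase of ribosome assembly, 31, and USP34, a deubiquitinase, 30. In cytoplasm the same genes had 0 to 3 in WT and 0 to 5 in S34F. The most in WT cytoplasm was 4, at LRPPRC, a mitochondrial RNA-binding protein gene, and XRN2, a nuclear exonuclease, and in S34F cytoplasm it was 5 at PRKDC, which had 2 in WT.

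Genes of 3′ splice site recognition had a higher share with junction clusters than all genes in each list. Of the 22 listed, 16 of 17 with any cluster had one on chromatin (94.1% against 59.2% of all genes), 5 of 16 in WT cytoplasm (31.3% against 8.71%) and 6 of 17 in S34F cytoplasm (35.3% against 12%). Their chromatin clusters held a median of 132 reads, against 49 for all. SF3B1, a core U2 snRNP protein, had 2 in WT cytoplasm, none in S34F cytoplasm and 10 on chromatin, and SF3B3 had 1, 2 and 15. Genes with more RNA and more exons give more clusters. The part of RNA amount and exon number in these shares, and in those of the gene lists below, was not tested. All these gene lists were chosen with earlier results of these data known.

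Junctions of the U2AF1 gene itself and of its partner's were among the clusters. U2AF1 had 4 on chromatin, the deepest with 327 reads at chr21:44514879-44514913, none in WT cytoplasm and 1 in S34F cytoplasm, with 9 reads, into a 5′ untranslated exon. U2AF2 had 4 on chromatin, with 38 to 201 reads, and 1 in WT cytoplasm with 7. NPM1, whose messenger RNA encodes nucleophosmin, had 6 on chromatin with 12 to 196 reads, none in WT cytoplasm and 2 in S34F cytoplasm, with 23 and 5.

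The hnRNP genes stood highest among the gene lists in cytoplasm, with 11 of 20 in WT (55.0%) and 12 of 20 in S34F (60%), and 19 of 20 on chromatin (95%). Over all genes with any cluster these shares were 8.71%, 12% and 59.2%. HNRNPU had 2 junctions in WT and 3 in S34F cytoplasm, the deepest of 20 and 150 reads, and HNRNPH1 had 1 and 3, the deepest of 11 and 107 reads. Of the SR protein genes 4 of 12 with any cluster had one in each cytoplasmic list (33.3%, against 8.71% and 12% of all genes) and 11 of 12 on chromatin (91.7% against 59.2%). SRSF1 with 110 reads, SRSF3 with 27 and SRSF11 with 36 were in the WT list only, and SRSF2, SRSF6 and TRA2A with 15, 14 and 9 reads in the S34F list only. SRSF5 was the sole SR gene in both.

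Ribosomal protein genes had junction clusters in 8 of 60 genes with any cluster in WT cytoplasm (13.3%), 15 of 56 in S34F cytoplasm (26.8%) and 58 of 72 on chromatin (80.6%), beside 8.71%, 12% and 59.2% of all genes. RPS19 and RPS29, proteins of the small ribosomal subunit, had 79 and 58 reads at their deepest in S34F cytoplasm and no junction cluster in WT cytoplasm. At their deepest, RPL4 had 100 reads in WT and 34 in S34F, and RPS21 78 and 27. These clusters of the 2 lists did not overlap, so the values belong to different places in each gene. Translation factor genes had them in 8 of 51 (15.7%), 10 of 49 (20.4%) and 45 of 56 genes (80.4%), beside the same shares of all genes. EIF4A2 was the deepest of these in both cytoplasmic lists, with 159 and 88 reads.

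Of 22 genes listed here for reported S34F-sensitive exons, 21 had clusters on chromatin and 19 of them a junction cluster (90.5%, against 59.2% of all genes). The reports behind the list, that for NPM1 included, are not among the sources used here. In WT cytoplasm it was 6 of 21 (28.6% against 8.71%) and in S34F cytoplasm 4 of 18 (22.2% against 12%). BCOR with 13 reads, CTNNB1 with 10 and CUL1 with 14 were in the WT list only, and NPM1 in the S34F list only. EWSR1 held 38 WT and 7 S34F reads at a junction found in both lists. The deepest clusters of SERF2 held 25 and 9 reads and those of PTBP1 36 and 5, but these did not overlap between the lists. The counts are small and each list is a single pooled measurement.

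A second readout of U2AF1 was set beside the junction genes. In bronchial epithelial cell (HBEC) lines, U2AF1 was precipitated and its RNA sequenced (RIP-seq) in 3 lines, labelled WT, S34F and FS (frame shift), with a control immunoglobulin precipitate (IgG) and cytosolic RNA from each. The 9 libraries, 1 of each kind per line, held 2582162 to 29769920 counts. The p-values rest on the spread left among all 9 libraries, cytosolic ones included, once differences between the 3 lines are taken out. A gene count in RIP covers the whole transcript and cannot place binding at a junction.

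Genes with a cytoplasmic junction cluster had a median ratio of IP to IgG close to that of genes at large, and no test of the set was run. Of 1184 such genes tested, 6 rose and 7 fell in the IP libraries relative to IgG by edgeR's quasi-likelihood test with Benjamini-Hochberg adjustment. That is 0.507% and 0.591%, against 0.224% higher and 1.12% lower among all 11612 genes tested. Their median log2 ratio of IP to IgG was 0.09, with quartiles of -0.47 and 0.76, against 0.03 for all genes and 0.11 for 5936 genes with other cytoplasmic clusters only. The calls are few in either direction, and the medians lie close together beside these quartiles. Of 607 genes tested with a WT cytoplasm junction cluster 1 rose (0.165%) and 4 fell (0.659%). Of 764 with an S34F cytoplasm junction cluster 6 rose (0.785%) and 4 fell (0.524%).

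CDC42, a small GTPase gene, had the largest called rise, at 114, 105 and 103 counts per 1000000 (CPM) in WT, S34F and FS IP against 34.1, 34.9 and 31.7 in IgG (log2 1.5 ± 0.32, SE; adjusted p = 0.0258 in edgeR). RAD23B, a DNA repair and proteasome factor, followed with log2 1.41, then the noncoding FTX with 1.06, RPL5 with 0.98 and the elongation factor gene EEF1A1 with 0.92. EEF1A1 stood at 23539, 23535 and 21124 CPM in IP against 9512, 14962 and 8479 in IgG (adjusted p = 0.000571 in edgeR). In both genes every IP library was above every IgG library.

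The largest called falls were at COL4A2, a collagen chain (log2 -4.07 ± 0.51, SE; adjusted p = 0.00100 in edgeR), SLC3A2, an amino acid transporter subunit (-1.70), PSAP, prosaposin (-1.64), ESYT1, a membrane tether of the endoplasmic reticulum (-1.44), and PTPRF, a receptor phosphatase (-1.38). COL4A2 stood at 29.9, 3.87 and 4.89 CPM in IP and 256, 42.1 and 187 in IgG. SLC3A2 stood at 603, 604 and 593 CPM in IP and 2073, 1126 and 2089 in IgG, without overlap of the groups.

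Many of these calls were lost when a line was left out. Without the WT line 1 of the junction genes was higher and 3 were lower, without the S34F line 3 and 12, and without the FS line 3 and 7. Over all genes these counts were 2 and 15, 20 and 187, and 10 and 77. CDC42 and RAD23B missed the threshold whichever line was left out, and CDC42 then had adjusted p-values of 0.113 to 0.187 in edgeR. EEF1A1 held without each line and missed it without line as a block (adjusted p = 0.174 in edgeR). Without that block none of the junction genes was higher and 4 were lower, beside 0 and 32 of all genes. At an unadjusted p under 0.05, with the block, 93 of the 1184 junction genes were higher and 75 lower in edgeR, beside 664 and 833 of all 11612 genes. DESeq2 called 33 junction genes higher and 31 lower, beside 473 and 514 of all genes. It was run on all genes with a count, so 1184 and 11612 are not its totals, and shares are not given.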

How the data were processed

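PAR-CLIP clusters were deposited by the authors as 1 list per condition, made from replicates A and B together, per the labels. Per the file headers each cluster has read counts (ReadCount), distinct sequences, the fraction of reads with a T-to-C conversion, an annotation and its sequence. The submitters' processing notes name TopHat, with no version. The cluster caller, genome build and RIP counter are not given in the sources used here. The lists held 526075 (WT cytoplasm), 658110 (S34F cytoplasm) and 4723555 (WT chromatin) reads, and every cluster had at least 4 reads and 2 conversion positions. Sequences printed come from the lists. Overlapping clusters of different lists had the same letters in all 14195 overlaps (345104 bases), so these are not the converted reads. Of the chromatin junction clusters matched by symbol, 12.4% lay inside the GRCh38 bounds of their gene in the RefSeq table and 99.7% inside the bounds in the RIP tables.

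The AG was the one with the most C or T at -13 to -4 (at least 7 of 10, all inside the cluster), the most upstream on a tie. Clusters overlapped if they shared at least 1 base on 1 strand. RIP expected counts were deposited by the authors per gene (26.28% not whole, judged from the values) and were rounded. Of 26453 entries 119 duplicates of a symbol were dropped. The 9 libraries entered 1 edgeR quasi-likelihood fit (filterByExpr, TMM) with line as a block, and 11612 genes were tested. Lines pair the samples, since libraries of 1 line come from the same cells. Their deviations correlated by a median of 0.079 (0.037 to 0.156) over 9 pairs.

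Named clusters were the 5 with most reads per list, the 5 in all 3 lists with the highest lowest RPM, and, at 20 reads or more in both cytoplasmic lists together, the 4 highest and 4 lowest ratios of S34F to WT. Sequences are those of intron-coding clusters outside chromosome 8 of at most 30 bases with an acceptor-like AG in these sets. The next in order were taken where fewer than 3 qualified. SDR39U1 and ZNF226, of the set in all 3 lists, are not shown. One cluster of the set in all 3 lists is not reported here. Genes named from RIP were the 5 largest called changes in each direction. The members and gene lists were chosen with earlier results of these data known. The scripts were tested on simulated data. Tools were Python 3.11.15, pandas 2.3.3, scipy 1.17.1, numpy 2.4.6, matplotlib 3.10.9, R 4.3.3, edgeR 4.0.16, limma 3.58.1 and DESeq2 1.42.0.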

Additional observations from a re-analysis of the deposited data

How the results depend on the processing

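Depth limits the cytoplasmic lists, at a median of 11 and 10 reads per junction cluster, and no spread between PAR-CLIP replicates can be given. No paired analysis was possible because replicates A and B are pooled in each PAR-CLIP list. An AG search at annotated exon starts was not run, since no genome of the lists' build was used here. Filters on 3 distinct sequences and windows with at least 4 of the 10 bases inside the cluster were chosen after seeing the data. The values below are in the order WT cytoplasm, S34F cytoplasm and WT chromatin unless named, and where they moved the cause was not tested.

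The share of clusters that are 3′ junctions was 3.04%, 3.92% and 18.9% with at least 10 reads, 3.75%, 4.44% and 26.1% with at least 3 conversion positions, 3.09%, 3.75% and 20.6% with at least 3 distinct sequences, and 2.37%, 2.90% and 16.2% for intron-coding clusters only. The share with an acceptor-like AG was 62.7%, 62.9% and 62.3% with at least 3 conversion positions, 25.5%, 27.0% and 26.0% with at least 9 pyrimidines, and 68.9%, 68.8% and 75.3% with 4 of the 10 bases inside the cluster. It was 60.8% in S34F cytoplasm with at least 10 reads and 58.5% on chromatin with at least 3 distinct sequences.

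Cytosine at -3 in WT cytoplasm was 51.9% with at least 10 reads, 52.3% with at least 3 conversion positions, 67.2% with exactly 1 candidate AG and 49.4% with clusters weighted by reads. On chromatin it was 47.9% with at least 3 conversion positions, 51.6% with at least 9 pyrimidines, 50.9% with 4 of the 10 bases inside, 52.0% with 1 candidate AG and 48.6% weighted by reads. Thymine at -3 in WT cytoplasm was 31.8% with at least 10 reads and 34.7% with at least 9 pyrimidines, and on chromatin it was 37.5% with at least 9 pyrimidines, 35.9% with 4 of the 10 bases inside and 32.7% weighted by reads.

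The median share of converted reads was 68.4%, 70.0% and 94.4% with at least 10 reads, 73.3%, 76.5% and 90.1% with at least 3 conversion positions, and 71.4%, 77.8% and 92.7% with at least 3 distinct sequences. Median reads were 16, 15 and 51 with at least 10 reads and 15, 13 and 70 with at least 3 conversion positions, and with at least 3 distinct sequences 13 in WT cytoplasm and 55 on chromatin. Of S34F cytoplasm clusters with at least 10 reads 54.2% overlapped a chromatin junction.

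In RIP, DESeq2 called 473 genes higher and 514 lower of all genes with a count (33 and 31 of the junction genes). No filter on low counts gave 71 and 281 (10 and 22). Without line as a replicate block, which the pairing by line otherwise sets, 0 genes were higher and 32 lower (0 and 4 of the junction genes). Leaving out 1 line gave 2 to 20 higher and 15 to 187 lower (1 to 3 and 3 to 12 of the junction genes), with the fewest without the WT line, at 2 and 15, and 10 and 77 without the FS line. Of the values for comparisons under an alternative 76 moved and 72 did not, and of those for single RIP genes 28 missed the threshold and 63 did not. None turned its direction.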
